A study of Caenorhabditis elegans with 2 samples.

Results

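The genes described here encode the proteins of the mitochondrial ribosome in the nematode Caenorhabditis elegans, and the data are peak lists from chromatin immunoprecipitation sequencing (ChIP-seq) of LIN-14. Members were the protein-coding genes of the Ensembl annotation whose name begins with mrpl- or mrps- followed by a number, which gave 70 of 19973 nuclear protein-coding genes, 41 of the large subunit series (mrpl) and 29 of the small subunit series (mrps). The worms were of strain OP768, an unc-119(tm4063) background with the insertion wgls768, which carries lin-14 fused to TY1, EGFP and 3xFLAG together with unc-119(+). Whole L1 larvae of both sexes, 6 hours old and synchronised by starvation after bleaching, were used, and antibody against GFP pulled down the tagged protein. There was 1 group with 2 biological replicates and no second condition, so no change between conditions can be measured. The transgene adds lin-14 sequence to the genome, and the labels do not say in which tissues it was expressed.

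Mitochondrial ribosomes translate the few messenger RNAs of the mitochondrial genome, which encode core subunits of the respiratory chain and ATP synthase. All their proteins come from nuclear genes, are made in the cytosol and are imported. Many have a counterpart in bacteria, and others are found only in mitochondria. LIN-14 is a nuclear DNA-binding protein of the heterochronic pathway, needed for events of early larval life, and the microRNA lin-4 lowers its level as larvae develop. In C. elegans many genes for basic cell functions lie in operons, where a row of genes on a single strand is transcribed from the promoter of the first.

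A LIN-14 summit lay in the promoter window of 22 of the 70 genes (31.4%, 95% exact Clopper-Pearson interval 20.9 to 43.6%), against 23% of all protein-coding genes. Around each annotated transcript start of a gene, the window covered 1000 bp on the upstream side and 200 bp on the other. Peaks are those of the list that the authors thresholded by irreproducible discovery rate (IDR), with 11507 peaks. The interval of the members' share includes the share over all genes, and treats genes as independent although neighbours can share a peak. The 22 genes rested on 21 peaks, since mrpl-1 and mrps-24 had the same one, and no member had more than 1 summit in its window. Summits in the stronger 50% of the list were found at 15 members (21.4%), against 15.4% of all genes.

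Each peak carries a score for its strength, set by the authors' peak calling and without a stated unit, and the scores of the replicate lists are on a lower scale than those of the IDR-thresholded list. The strongest score per member with a summit had a median of 578 and quartiles of 339.9 and 1039. Over all 4599 genes with a summit the median was 526 and the quartiles were 294 and 957. The highest score, 1956, was at mrps-7, and the lowest, 165, at mrps-6. Over all genes scores reached 7747. The strongest summit ranked within the first 1000 for 4 of the 22 members (18.2%), namely mrps-7, mrpl-28, mrpl-49 and mrpl-55, and for 15.5% of all genes with a summit.

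The strongest peak lay at mrps-7, which encodes the small subunit protein uS7m (chromosome IV, 14766773 to 14767730, minus strand). Its score was 1956, with 1022 in replicate 1 and 924 in replicate 2, and it ranked 470 of 11507. The summit, at 14767906, was 176 bp upstream of mrps-7 in intergenic sequence. It also stood 295 bp upstream of Y57G11C.3, a putative 6-phosphogluconolactonase on the opposite strand, so that it cannot be given to either gene alone.

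Next came mrpl-28, which encodes bL28m of the large subunit (chromosome II, 154881 to 156009, minus strand). It had a score of 1689, with 897 in replicate 1 and 794 in replicate 2. The summit at 156120 was 111 bp upstream, and no other protein-coding window held it, the gene upstream, etr-1, being 6364 bp away. A summit of score 1662 (replicates 931 and 737) stood 169 bp upstream of mrpl-49, which encodes mL49 (chromosome V, 12728631 to 12729417, plus strand). It also lay 350 bp upstream of rpl-28, a gene for the cytosolic ribosomal protein eL28, transcribed the other way. At mrpl-55 (chromosome IV, 443985 to 444786, plus strand) the score was 1431 (replicates 786 and 656), 123 bp upstream and in no other window.

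The next 6 members by score ranked from 1267 to 3250. For mrpl-17, encoding bL17m, the score was 1140.0 (replicates 649.7 and 496), 176 bp upstream and shared with the RNA helicase gene vbh-1. For mrpl-15, encoding uL15m, it was 1089.65 (replicates 577 and 526), 637 bp upstream with no other gene in reach. For mrps-17, encoding uS17m, it was 887 (replicates 453 and 446), 125 bp upstream and shared with the divergent gene txdc-9 and, at 989 bp, with popl-1. For mrps-31, encoding mS31, it was 724 (replicates 411 and 323), 169 bp upstream and unshared. For mrpl-40, encoding mL40, it was 603 (replicates 334 and 259.8). That summit was 191 bp upstream of mrpl-40 and 13 bp inside F54C4.4, in an untranslated exon. The tenth, mrpl-23, encodes uL23m, which in bacteria lines the exit of the peptide tunnel. Its summit of 596 (replicates 331 and 278) was 975 bp upstream, inside an intron of fars-1, the phenylalanyl-tRNA synthetase gene that precedes mrpl-23 on the same strand. The nearest 5′ end to it, 32 bp away, was that of an annotated pseudogene.

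The other 12 members with a summit had scores from 165 to 579.9. They were mrpl-35, mrpl-1, mrps-24, mrpl-18, mrps-16, mrpl-47, mrps-18B, mrpl-34, mrpl-20, mrps-9, mrpl-13 and mrps-6, in falling order. The genes mrpl-1, for protein L1 of the large subunit, and mrps-24, for uS3m of the small subunit, stand back to back with emc-6 on chromosome IV, and their single peak had a score of 577 (replicates 310.4 and 261). It lay 200 bp upstream of mrpl-1, 165 bp upstream of emc-6 and 144 bp upstream of mrps-24. In the RefSeq model mrpl-1 begins after emc-6, and the summit is then 817 bp upstream of it, still within the window. For the other 21 members with a summit the Ensembl and RefSeq gene coordinates were identical.

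**Figure D1:**
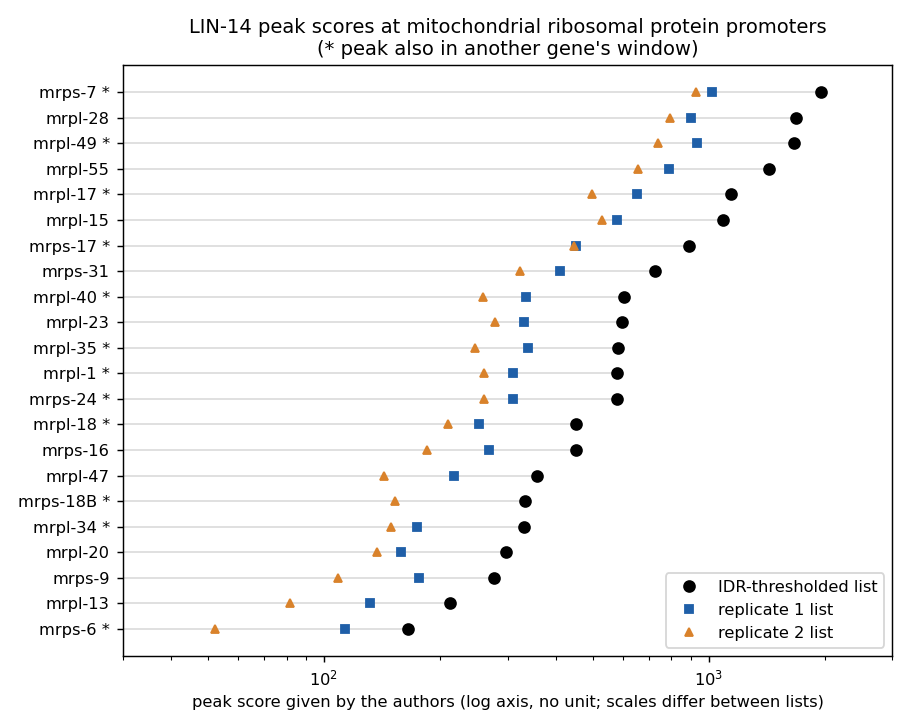
Peak scores given by the authors (log axis, no unit) at the 22 mitochondrial ribosomal protein genes with a LIN-14 summit in the promoter window, in the IDR-thresholded list (circles) and the lists of replicate 1 (squares) and replicate 2 (triangles). Scores run from 165 at mrps-6 to 1956 at mrps-7, an asterisk marks peaks that also lie in the window of another gene, and mrps-18B has no replicate 1 value.

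Most member peaks were found in both replicates. Of the 21 peaks, 20 had a summit within 100 bp in each replicate list, and 19 had it among the 11507 highest scoring peaks of each. By genes, 21 of 70 had a summit matched in both (30%), against 22.4% of all genes. Since the thresholded list was derived from the replicate lists, this is no independent measure of agreement. All 20 peaks scored higher in replicate 1, with a log2 ratio from 0.02 at mrps-17 to 1.13 at mrps-6 and a median over members of 0.27. Over all 11120 matched peaks the median ratio was 0.35 (SD 0.41), and 19 of the 20 member peaks lay within 1 SD of it. The exception, mrps-6, which encodes bS6m, had 114 in replicate 1 and 52.1 in replicate 2 and was not among the strongest 11507 of replicate 2. The peak at mrps-18B (score 334) had 153 in replicate 2 and no counterpart in replicate 1, where the nearest summit was 3242 bp away.

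**Figure D2:**
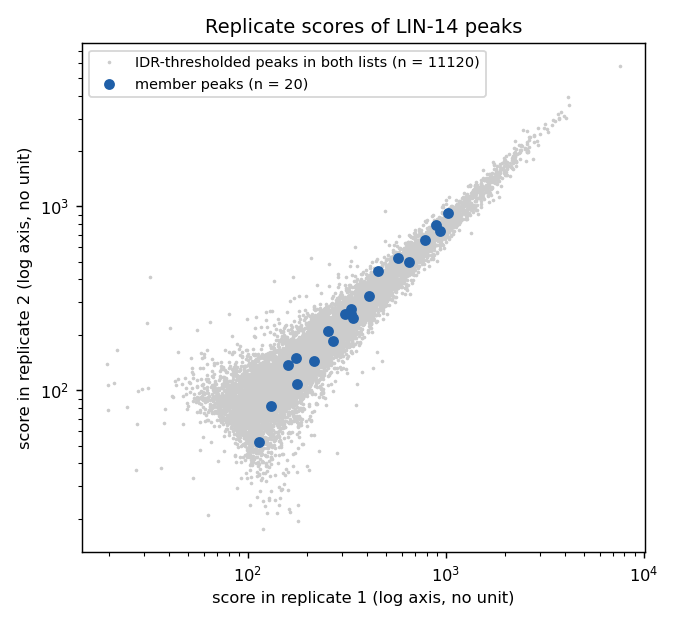
Score in replicate 1 against score in replicate 2 (both log axes, no unit) for the 11120 IDR-thresholded peaks with a summit within 100 bp in both replicate lists (grey) and the 20 member peaks among them (blue). Member peaks follow the cloud of all peaks, and the lowest of them, mrps-6, lies farthest toward replicate 1.

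Summits stood at a narrow range of distances from the members' 5′ ends. In 18 of 22 cases (81.8%, interval 59.7 to 94.8%) the summit was 100 to 300 bp upstream, which applied to 1707 of 4599 genes with a summit over the genome (37.1%). Counting all summits within 300 bp upstream gave the same 18 members, against 2338 of the 4599 genes (50.8%). The distance classes were not part of the planned results, and the peak of mrpl-1 and mrps-24 counts for both genes. The median distance was 172.5 bp upstream, with quartiles of 143 and 233 bp, against 252 bp with quartiles of 127 and 512 bp over all genes. None of the member summits lay in the last 100 bp before the 5′ end. The exceptions were mrpl-15 at 637 bp, mrpl-47 at 918 bp and mrpl-23 at 975 bp upstream, and mrpl-13, whose summit was 108 bp inside the gene in an intron (score 212, replicates 132 and 81.6). By annotation 18 of the 21 summits were intergenic (85.7%), against 74.2% of the 3860 that were the strongest of any protein-coding gene. Peaks at members were from 137 to 410 bp wide with a median of 280 bp, against 353 bp for all IDR-thresholded peaks.

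**Figure D3:**
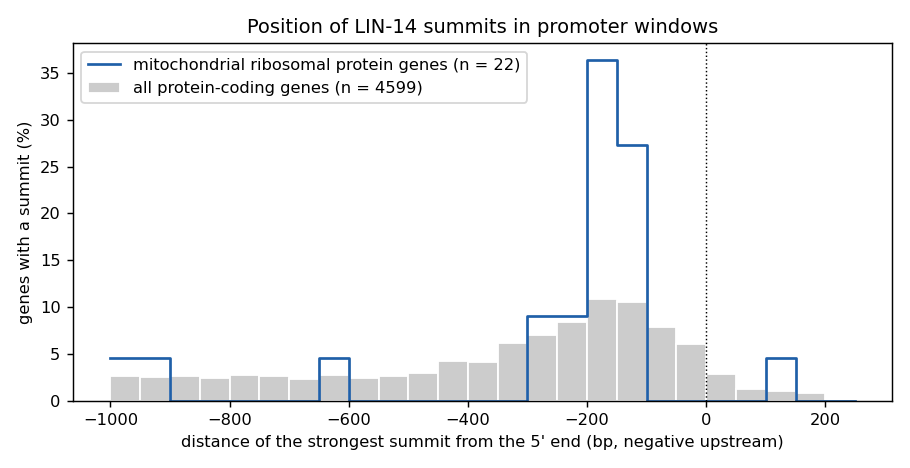
Share of genes with a summit (y axis, percent) by the distance of their strongest summit from the 5′ end (x axis, bp, negative upstream, bins of 50 bp), for all 4599 protein-coding genes with a summit (grey) and the 22 mitochondrial ribosomal protein genes with one (blue line). Of the 22, 18 lie from 100 to 300 bp upstream.

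Many of these peaks lay between divergent genes. The summit was also in the window of another protein-coding gene for 12 of the 22 members (54.5%), and in each of the 12 at least 1 of these other genes was on the opposite strand. Over all genes with a summit the strongest one was shared in 32.3%. Sharing was not particular to the members. It applied to 43 of the 63 cytosolic ribosomal protein genes with a summit (68.3%). For the respiratory chain and ATP synthase it applied to 14 of 22 such genes (63.6%). Counting only summits that fell in no other window left 10 of 70 members (14.3%), against 15.9% of all genes, so that the members' share was then not above the background. In 7 cases the 5′ end of another protein-coding gene was nearer to the summit than the member's own: these were mrpl-1, mrpl-18, mrpl-34, mrpl-35, mrpl-40, mrps-6 and mrps-18B. The partners in shared windows included genes of quite different roles. Besides rpl-28 they were rpn-8, a proteasome subunit gene (259 bp, against 286 bp for mrps-6), the putative hydrolase gene lid-1 (145 bp, against 265 bp for mrpl-34), the phosphorylase kinase subunit gene C14B9.8 (151 bp, against 235 bp for mrpl-18), prp-9 (132 bp, against 153 bp for mrps-18B) and M01F1.4 (47 bp, against 157 bp for mrpl-35).

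The 10 members whose summit was in no other protein-coding window were mrpl-28, mrpl-55, mrpl-15, mrps-31, mrpl-23, mrps-16, mrpl-47, mrpl-20, mrps-9 and mrpl-13. At mrps-16, encoding bS16m, the score was 452 (replicates 269 and 186), 225 bp upstream. At mrpl-47, which encodes uL29m despite its number, it was 359 (replicates 217 and 143). At mrpl-20 it was 297 (replicates 159 and 138), and at mrps-9, encoding uS9m, 276 (replicates 177 and 109), both 143 bp upstream. In these 4 replicate 1 had the higher value.

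The sequences under these peaks are shown because some pairs of members hold a long word in common. Windows of 101 bases centred on the summit were compared between 14 of the 21 peaks, and those of the other 7 were not compared. An identical word of at least 12 bases was found in 5 of the 91 pairs. The windows of these pairs are given below 5′ to 3′ on the member's strand (for the peak of mrpl-1 and mrps-24, on the strand of mrpl-1), with the shared word in capitals, from the RefSeq copy of WBcel235.
mrps-17, chrIII:6431873-6431973, minus strand: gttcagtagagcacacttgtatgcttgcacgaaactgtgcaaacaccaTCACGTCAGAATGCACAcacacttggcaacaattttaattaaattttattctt
mrpl-1 with mrps-24, chrIV:7709851-7709951, minus strand: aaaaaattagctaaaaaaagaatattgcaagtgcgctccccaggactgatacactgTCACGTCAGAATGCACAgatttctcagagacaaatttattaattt
mrps-31, chrIII:3630491-3630591, minus strand: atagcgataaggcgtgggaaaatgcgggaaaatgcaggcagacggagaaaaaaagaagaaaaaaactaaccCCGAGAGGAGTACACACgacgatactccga
mrpl-18, chrIII:8144730-8144830, plus strand: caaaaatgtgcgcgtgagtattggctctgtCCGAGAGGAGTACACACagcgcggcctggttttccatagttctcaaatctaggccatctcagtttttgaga
mrpl-28, chrII:156070-156170, minus strand: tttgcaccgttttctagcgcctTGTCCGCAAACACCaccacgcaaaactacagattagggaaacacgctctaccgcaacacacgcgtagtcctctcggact
mrps-16, chrII:5474098-5474198, plus strand: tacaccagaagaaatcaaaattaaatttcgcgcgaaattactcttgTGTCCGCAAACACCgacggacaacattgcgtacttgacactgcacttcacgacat
mrpl-40, chrIII:87318-87418, plus strand: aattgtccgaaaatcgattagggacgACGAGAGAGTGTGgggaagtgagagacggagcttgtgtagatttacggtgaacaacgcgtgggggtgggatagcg
mrpl-35, chrIII:3510030-3510130, plus strand: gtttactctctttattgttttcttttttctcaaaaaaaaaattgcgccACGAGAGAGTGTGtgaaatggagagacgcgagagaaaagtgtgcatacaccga
mrpl-49, chrV:12728412-12728512, plus strand: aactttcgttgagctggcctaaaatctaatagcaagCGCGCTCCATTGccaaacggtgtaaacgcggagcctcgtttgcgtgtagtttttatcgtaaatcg
mrps-9, chrIII:8265869-8265969, plus strand: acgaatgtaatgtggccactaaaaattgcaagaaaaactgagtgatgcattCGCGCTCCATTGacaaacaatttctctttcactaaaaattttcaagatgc

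The longest words, of 17 bases, were shared by mrps-17 with the peak of mrpl-1 and mrps-24, and by mrps-31 with mrpl-18. Searched on both strands, the word TCACGTCAGAATGCACA was in 2 of all 11507 summit windows and at 10 places in the genome. The word CCGAGAGGAGTACACAC was in 4 summit windows and at 22 places. The 14-base word of mrpl-28 and mrps-16 was in 3 summit windows and at 20 places. The 13-base word of mrpl-40 and mrpl-35 was in 9 windows and at 30 places. None of these 4 was found in windows of the same length centred 300 bp to either side of any summit. Since the words were taken from summit windows and are rare in the genome, that contrast cannot show a preference for summits. The 12-base word of mrpl-49 and mrps-9 was more widespread, with 19 summit windows (0.165%), 9 of the windows to the right and 643 places in the genome. How often pairs among all summit windows share such a word was not counted, so the 5 of 91 pairs have no background here. These words were looked for after the windows had been read, and nothing follows from them about the protein that bound.

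Shorter words were counted in all 21 member windows and at their sides, left and right being those of the reference strand. The word GAGAG, or its reverse complement CTCTC, was in 7 of 21 member windows (33.3%, interval 14.6 to 57.0%). It was in 4 of the windows to their left and in 3 of those to their right. Over all summit windows it was in 41.8%, against 13.7% and 12.7% at the sides. Words linked to LIN-14, which begin with TGGA or CGGA and end with A or G, were also searched on both strands, and at least 1 was in 12 of 21 member windows (57.1%). That compares with 56.9% of all summit windows, and with 54.4 and 54.3% at the sides of all summits. At the sides of member summits such a word was in 13 windows on the left (61.9%) and 19 on the right (90.5%), so that it was not more frequent under the member summits than beside them. The forms ending in GGAG can overlap with GAGAG. The median GC content of member windows was 43.6%, the same as over all summit windows, against 34.7% on the left and 39.6% on the right of member summits.

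The position of a member among its neighbours differed widely. For 29 of the 70 members (41.4%) the next protein-coding gene upstream was on the same strand with its end at most 500 bp away, as for genes downstream in an operon. This was the case for 19.8% of all genes. Such an arrangement comes from the gene models and does not show that the genes share a transcript. Overlapping genes were included. The gap was -510 bp between emc-6 and mrpl-1, whose 5′ ends are 35 bp apart, and -105 bp between hinf-1 and mrps-27. Of these 29, only 4 had a summit in their own window (13.8%, interval 3.89 to 31.7%), against 13.4% over all genes so placed. The 4 were mrpl-1, mrpl-13, mrpl-23 and mrps-9. Where the upstream gene was on the opposite strand and at most 1000 bp away, 11 of 26 members had a summit (42.3%, interval 23.4 to 63.1%), against 32.2% of all genes so placed. Where it was on the opposite strand but farther away, 5 of 8 members had one (62.5%, interval 24.5 to 91.5%). The share of all such genes was 26.8%. With a same-strand gene over 500 bp away, 2 of 6 members had a summit (33.3%, interval 4.33 to 77.7%), against 21.03%. The last member, mrps-23, lies within another gene and had none.

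LIN-14 summits often stood at the head of the rows in which members lie. Following each of the 29 closely placed members upstream, through genes of the same strand with gaps of at most 500 bp, led to 28 first genes. The first gene had a summit in its window for 20 of the 29 members (69.0%, interval 49.2 to 84.7%), against 34.8% over all genes so placed. With gaps of at most 200 bp the shares were 16 of 22 members (72.7%) and 39.4% of all. In 17 of the 20 the member itself had none. Counting a summit in either place gave 39 of 70 members (55.7%), against 28.4% of all genes. This count was chosen after the data were seen, and the difference was not tested. First-gene summits that also lay in another gene's window were kept, and how many there were was not counted. The summit of atp-2, for one, also lay in 2 other windows. For mrpl-1 the summit of the first gene, emc-6, was the member's own peak. The same-strand genes over the genome include tandem copies of gene families as well as operons, and the part of that in the lower share was not tested.

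The first genes with a summit had scores from 335 to 2669.7, with a median of 965. The highest was at rpn-3, a proteasome subunit gene 206 bp downstream of the summit, in whose row mrpl-32 lies. At clsp-1, which encodes claspin and precedes mrpl-54, the score was 2118. Some rows began with a gene for another mitochondrial protein, which was not counted over the 28 first genes or over all genes. F29B9.11, annotated as cytochrome c oxidase polypeptide VIIc, precedes mrps-21 and had 1705, with its summit 342 bp upstream. The gene atp-2, for the beta subunit of ATP synthase, heads the row of mrps-26 and had 1226, 243 bp upstream. The carrier gene misc-1 precedes mrpl-41 and had 1125, 801 bp upstream, inside an intron of B0432.10. The row of natc-1, mrps-2 and mrpl-4 holds 2 members behind a single summit of 962, 89 bp upstream of natc-1. Other rows began with the translation factor gene eif-3.E (686, before mrps-30), the chaperonin gene cct-2 (544, before mrpl-50) and vps-37 (726, before mrpl-48). These 9 first genes were chosen after their values were seen. Others with scores above some of them were passed over, such as nrde-2 (1425, before mrps-14) and num-1 (1209, before mrps-12).

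**Figure D4:**
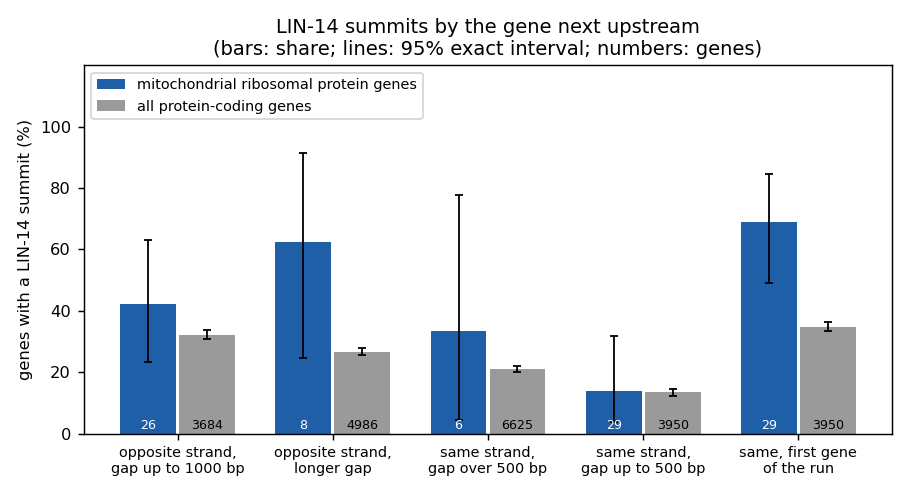
Share of genes with a LIN-14 summit in their own promoter window (y axis, percent) by the strand and distance of the next gene upstream, and, in the last pair of bars, the share whose row of same-strand genes has a summit at its first gene. Blue bars are mitochondrial ribosomal protein genes and grey bars all protein-coding genes, lines are 95% exact intervals and numbers in the bars are genes. Of 29 closely placed members 4 had a summit of their own and 20 had 1 at the first gene.

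By subunit, 14 of 41 mrpl genes had a promoter summit (34.1%, interval 20.1 to 50.6%) and 8 of 29 mrps genes did (27.6%, interval 12.7 to 47.2%). The median scores were 588 and 514. RefSeq gives a systematic protein name to 48 members, in which u marks proteins of all domains of life, b those shared with bacteria and m those of mitochondria only. A summit was present for 13 of 30 genes with a u or b name (43.3%, interval 25.5 to 62.6%), 4 of 18 with an m name (22.2%, interval 6.41 to 47.6%) and 5 of the 22 with neither. Divided by gene number, at L36 and S21, the shares were 16 of 41 and 6 of 29. The intervals of these groups overlap and no test of the differences was made. Gene names and protein names do not always match. The product of mrpl-34 is mL43, and that of mrps-18C, counted here with the mrps genes, is the large subunit protein uL3m. By chromosome, members with a summit numbered 7 of 15 on I, where 23.6% of all genes had one, and 4 of 12 on II, against 23.5%. They numbered 6 of 22 on III, against 27.3%, 4 of 11 on IV, against 18.7%, and 1 of 10 on V, against 16.9%. No member is on X.

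No summit lay in the window of 48 members, and for 47 of them the list called on both replicates together held none either. That list, without the IDR threshold, had 24683 peaks and placed a summit at 23 of 70 members (32.9%), against 31.7% of all genes, so that it added 1 member while the background rose. The added member was mrpl-53, with a score of 56.8 at 931 bp upstream. The gene mrps-5, which encodes uS5m and whose knockdown in worms is known to prolong life and to induce the mitochondrial unfolded protein response, had no summit in its window in any of the 4 lists. The nearest IDR-thresholded summit to it was 4105 bp upstream with a score of 202. It lies 103 bp behind sel-1 on the same strand, and the window of sel-1 held no IDR-thresholded summit either. Over the 48 genes the nearest summit was from 1026 to 27012 bp away, with a median of 5066 bp. Those just beyond the upstream edge of the window were mrps-21 at 1026 bp (score 1705), mrpl-48 at 1196 bp (726), mrpl-51 at 1324 bp (339) and mrps-18.C at 1344 bp (637). The summits for mrps-21, mrpl-48 and mrps-18.C are those already counted at the first genes of their rows, F29B9.11, vps-37 and T14B4.3. Just inside the edge were mrpl-23 at 975 bp and mrpl-47 at 918 bp.

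A few members without a thresholded peak had one in a replicate list. In 9 of the 48 windows at least 1 replicate list held a summit, and in 1, that of mrpl-45, both did. The same count was not made over all genes without a thresholded summit, so 9 of 48 has no background here. The gene mrpl-45 encodes mL45 (chromosome III, 1196389 to 1202008, minus strand). Its summits lay 352 and 349 bp upstream, with scores of 437 in replicate 1 (rank 2300 of 25357) and 292 in replicate 2 (rank 2907 of 27170). Those values exceed the replicate scores of mrpl-40, which is in the thresholded list. The list called on both together had no peak within 500 bp. Of the 2300 replicate 1 peaks at least as strong, 19 had no such counterpart (0.826%), and 10 of these were in both replicates. At mrpl-12 a summit of 447 (rank 1565) 549 bp upstream was in replicate 2 only. A summit of 277, 107 bp upstream of mrps-35, was in replicate 1 only, and a summit of 152, 127 bp upstream of mrpl-9, in replicate 2 only. The absence of a peak from a list is therefore not a measure of absent binding, and depth cannot be judged since the lists hold no read counts.

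Other genes of mitochondrial protein synthesis and respiration are given for comparison from lists chosen with earlier results of these data known. Among 11 factors of mitochondrial gene expression 3 had a promoter summit (27.3%, interval 6.02 to 61.0%). They were mtss-1, encoding the single-stranded DNA-binding protein (355, replicates 191 and 151), mma-1, the LRPPRC homolog (310.4, replicates 169 and 145), and twnk-1, the mitochondrial helicase (179, replicates 83.2 and 100.4). The elongation factor genes gfm-1, tufm-1, tufm-2 and tsfm-1, the transcription genes rpom-1 and hmg-5, the polymerase gene polg-1, and dap-3, a small subunit protein gene outside the naming rule, had none. Of 9 genes of the mitochondrial unfolded protein response 5 had one (55.6%, interval 21.2 to 86.3%). This interval includes the share of all protein-coding genes, 23%. The strongest were the chaperonin gene hsp-60 (2888, replicates 1502 and 1389) and atfs-1, the transcription factor of that response (1173, replicates 657 and 533). Then came clpp-1 (565, replicates 321 and 253) and ubl-5 (469, replicates 249 and 217). The 4 genes hsp-6, haf-1, lonp-1 and lin-65 had none.

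Genes of the respiratory chain and ATP synthase had a summit in 22 of 32 cases (68.8%, interval 49.99 to 83.9%), with a median score of 1142. The 10 without one were gas-1, lpd-5, nuo-2, nuo-3, nuo-4, nuo-5, nuo-6, asb-1, asg-1 and cox-7C. Of the listed nuo genes only nuo-1 had a summit (1033), so the share did not hold evenly across the list. The highest scores were at cox-5A (4600.1, replicates 2527 and 2084) and cox-5B (4317, replicates 2369 and 1963), for subunits of cytochrome c oxidase, then the ATP synthase gene atp-1 (2659.8, replicates 1461 and 1211) and cox-6B (2322, replicates 1250.3 and 1066). Genes for cytosolic ribosomal proteins had one in 63 of 78 cases (80.8%, interval 70.3 to 88.8%), with a median score of 1087. The intervals of both lists lie above that of the mitochondrial ribosomal protein genes, 20.9 to 43.6%. That holds for each gene's own window. With first genes of rows added the members' share was 55.7%, and this count was not made for the 2 lists. No test of these differences was made, and genes that share a peak are counted separately in each.

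**Figure D5:**
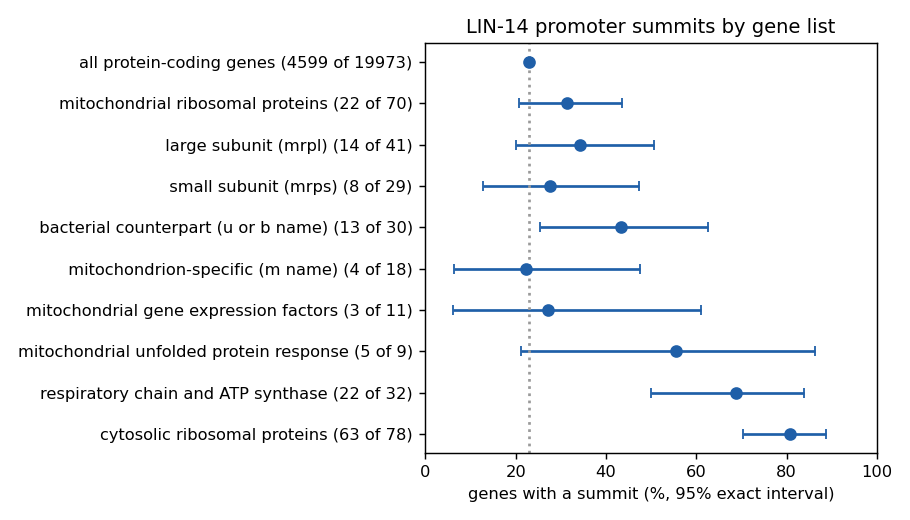
Share of genes with a LIN-14 summit in the promoter window (x axis, percent, points, with 95% exact intervals as lines) for all protein-coding genes, the mitochondrial ribosomal protein genes, their subgroups and 4 other lists, with counts in the row names. Mitochondrial ribosomal protein genes stand at 31.4%, the dotted line marks all genes at 23%, and the respiratory chain and cytosolic ribosomal protein lists are at 68.8 and 80.8%.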

How the data were processed

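LIN-14 ChIP-seq peaks of 2 replicates were taken as deposited on the ce11 build in 4 lists. By the README texts that were deposited, peaks were called against a control for each replicate and for both together, and the IDR-thresholded list was made from these calls. The sources used here do not give the aligner, the caller or the IDR cutoff. The deposited lists give a score per peak, used to rank and describe, and the −log10 of a q-value, which was not used. Read depth is unknown, so intervals cover counting of genes or peaks only.

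Gene models were those of Ensembl release 115 (WBcel235), with 12 mitochondrial genes left out, and sequence and protein names came from RefSeq. Coordinates were the same in both for 62 of the 70 members. Summits were the peak start plus the offset, counted from 1. Python 3.11.15, pandas 2.3.3 and scipy 1.17.1 were used. The window rule was tested on simulated summits. The design has 1 group, so no test between conditions was made. Members and lists were chosen with earlier results of these data known. By rule, the genes named were members with a summit (the 10 strongest in full), mrps-5, members with a summit from 1000 to 3000 bp upstream, the 4 strongest of each other list and neighbours sharing a window. Named beyond that rule, after their values were seen, were first genes of rows and the members behind them, members with a peak in a replicate or pooled list alone, members whose protein name differs, and the gene expression factors without a summit. So were nuo-1 and the genes without a summit of the respiratory chain and ATP synthase and of the mitochondrial unfolded protein response. Alternatives covered the window, 5′ ends, merging, score, sharing, assignment and peak list.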

Additional observations from a re-analysis of the deposited data

How the results depend on the processing

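The count of 22 members with a promoter summit was 10 when summits in 2 or more windows were left out, and 39 when the window of the first gene of a same-strand row was added, a choice made after the data were seen. In the other settings it stayed between 15 and 26, and the share over all genes moved as well. It was 18 (25.7%, all genes 17.7%) with 500 bp upstream to 100 bp downstream. With 2000 bp upstream to 500 bp downstream it was 26 (37.1%, all genes 29.7%). It was 22 (31.4%) with each gene's own 5′ end (all genes 20.9%) or with merged peaks (all genes 23.0%). The stronger 50% of peaks gave 15 (21.4%, all genes 15.4%). The nearest 5′ end within 3000 bp gave 18, and the list called on both replicates together gave 23 (32.9%, all genes 31.7%). From the top peaks of a single replicate it was 24 without replicate 1 (34.3%, all genes 23.9%) and 23 without replicate 2 (32.9%, all genes 23.5%). With the nearest 5′ end the share of all genes (26.8%) exceeded that of members (25.7%). The median score of 578 ranged from 524 to 588, and the 20 peaks matched in both replicates became 19 with a distance of 50 bp or with only the strongest peaks, and stayed at 20 with 200 bp. No paired analysis was possible because the design has a single group. Read depth is not given, and weak binding below the callers' limits cannot be seen.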
